A study of Mus musculus with 2 samples.

Results

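The collagen genes were examined in CT26 cells, a mouse colon carcinoma line, after knockdown of Setdb1. All protein-coding genes with a symbol of the form Col, digits, a, digits were taken, which gave 44 of the 22046 protein-coding genes in the table. The gene Col4a3bp has a longer symbol and encodes a lipid transfer protein, and it was not included. RNA sequencing of total RNA was available for 2 groups with 1 library each. CT26shSetdb1 cells carried a lentiviral short hairpin RNA directed at Setdb1, the gene of an enzyme that methylates histone H3 at lysine 9. CT26shCtrl cells had received lentivirus with the empty knockdown vector and are labelled wild type. Both were grown in RPMI 1640 with 10% FBS and collected after 6 days, when the knockdown cells are labelled as differentiated. The labels do not say whether a clone or a pool of cells was used, or how many hairpins. With 1 library in each group, no test between conditions was possible, and every difference below describes these 2 libraries.

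Collagens are extracellular proteins of 3 chains wound into a triple helix, built from a repeating unit that begins with glycine. Fibrillar collagens (types I, II, III, V, XI, XXIV and XXVII) pack into the banded fibres of connective tissue. Type IV collagen forms the sheet-like network of basement membranes, on which colon epithelium rests. The remaining types decorate fibres, form beaded filaments or short networks, anchor basement membranes or span the cell membrane. Fibroblasts are the main source of fibrillar collagen in the colon wall, but tumour cells of mesenchymal character can also transcribe these genes.

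The control library held 18421604 reads and the knockdown library 19045830, recovered as whole reads from the deposited FPKM values. FPKM values are fragment counts corrected for the length of each gene model and for depth. The authors divided both libraries by a common depth, so FPKM ratios still carry the 1.03 ratio of the totals. Log2 ratios are of (FPKM + 1), with knockdown over control, and compress differences between low values. Read ratios are relative to each library's own total, with 95% exact binomial (Clopper-Pearson) intervals that cover counting error only. Setdb1 stood at 10.4 FPKM in the control and 2.47 FPKM in the knockdown library, a read ratio of 0.229 (0.202 to 0.259). Among 12 markers of colonic epithelium, Epcam, Cdh1 and Cdx1 had no read in either library, while Krt18 went from 37.7 to 90.0 FPKM and Krt20 from 5.07 to 35.6 FPKM. The 12 summed to 44.1 FPKM in the control and 130 FPKM after knockdown, and 4 reached 1 FPKM. Of 8 fibroblast markers, Thy1, Lum, Fap and Tcf21 had no read in either library. The 8 summed to 14.2 FPKM in the control and 16.6 FPKM in the knockdown library, most of it Pdgfrb (13.5 and 14.6 FPKM). Pdgfra went from 94 to 333 reads (0.501 and 1.77 FPKM), a read ratio of 3.43 (2.72 to 4.36). Dcn had 23 and 33 reads, and Acta2 1 and 0. Cd68 made up nearly all of the 4 macrophage markers, which summed to 10.4 and 100.2 FPKM, with Adgre1 at 0 reads in both libraries. The 4 endothelial markers had 1 read in the control and 0 in the knockdown library. The part of these markers in the collagen differences was not tested.

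Expression was confined to a minority of the family in these 2 libraries. FPKM reached 1 in at least 1 library for 14 of the 44 genes (31.8%), against 42.5% of all protein-coding genes. These were 5 of 11 fibrillar genes, 3 of 6 basement membrane (type IV) genes and 6 of 27 others. The number was 14 under each of the 3 other scalings tried. The limit passed just below Col11a2, at 1.06 FPKM in its higher library, and just above Col14a1, at 0.693 FPKM in its higher library. Collagen reads made up 0.294% (0.292 to 0.297) of the control library and 0.254% (0.252 to 0.257) of the knockdown library.

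**Figure D1:**
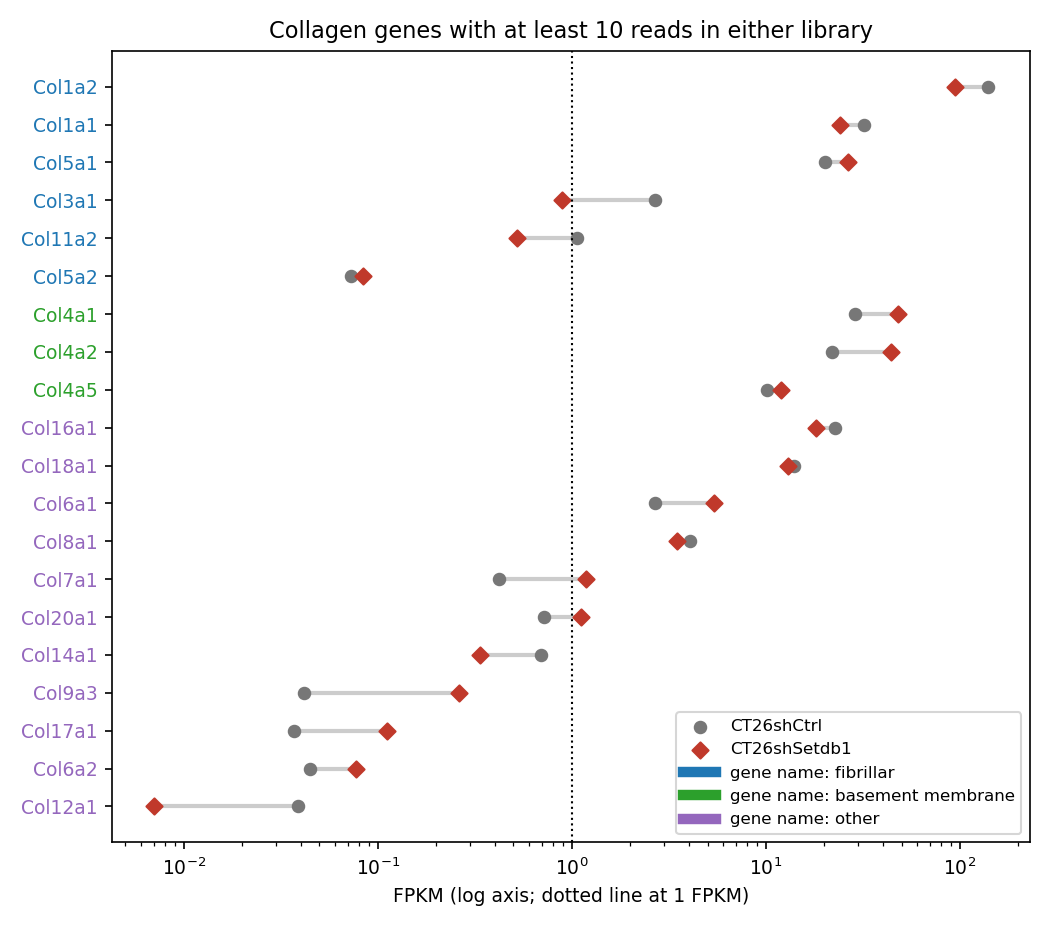
Levels in FPKM (log axis) of the 20 collagen genes with at least 10 reads in either library, with a circle for the CT26shCtrl library and a diamond for the CT26shSetdb1 library. The type IV genes Col4a1, Col4a2 and Col4a5 sit further right in the knockdown library, and Col1a2, Col1a1, Col3a1 and Col11a2 further left.

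The direction differed between the classes, which held only 3, 5 and 6 expressed genes. On the log2(FPKM + 1) scale, 7 of the 14 expressed genes were higher and 7 lower after knockdown. Their median was 0.059 (-0.022 under upper-quartile scaling), against 0 over all 9365 protein-coding genes at 1 FPKM or more. Of those 9365 genes, 4665 were higher and 4677 lower. The 3 type IV genes were all higher, with a median log2 ratio of 0.73. Of the 5 fibrillar genes 4 were lower, with a median of -0.44, and the 6 others were split evenly, with a median of 0.096 (-0.11 among those at 5 FPKM or more). None of the 14 genes changed direction under a pseudocount of 0.1, scaling by own read totals or upper-quartile scaling. No collagen gene reached a 2-fold difference on this scale, which 6.18% of the 9365 protein-coding genes at 1 FPKM or more did upward and 4.15% downward, the base of each background share below. With a pseudocount of 0.1, 2 genes were at least 2-fold higher and 1 lower. At 1.5-fold, Col4a1, Col4a2, Col6a1 and Col7a1 were higher (background 16.1%) and Col3a1 was lower (background 13.4%). On reads without a pseudocount, 1 gene was at least 2-fold higher (Col7a1, background 8.84%) and 2 at least 2-fold lower (Col3a1 and Col11a2, background 8.39%). The counting interval lay above 1 for 7 genes (background 36.9%) and below 1 for the other 7 (background 42.5%). At this depth such an interval excludes 1 for most expressed genes of the transcriptome, so it speaks of the 2 libraries and not of the conditions. In these bulk libraries, fewer cells with a transcript and less transcript per cell cannot be told apart.

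**Figure D2:**
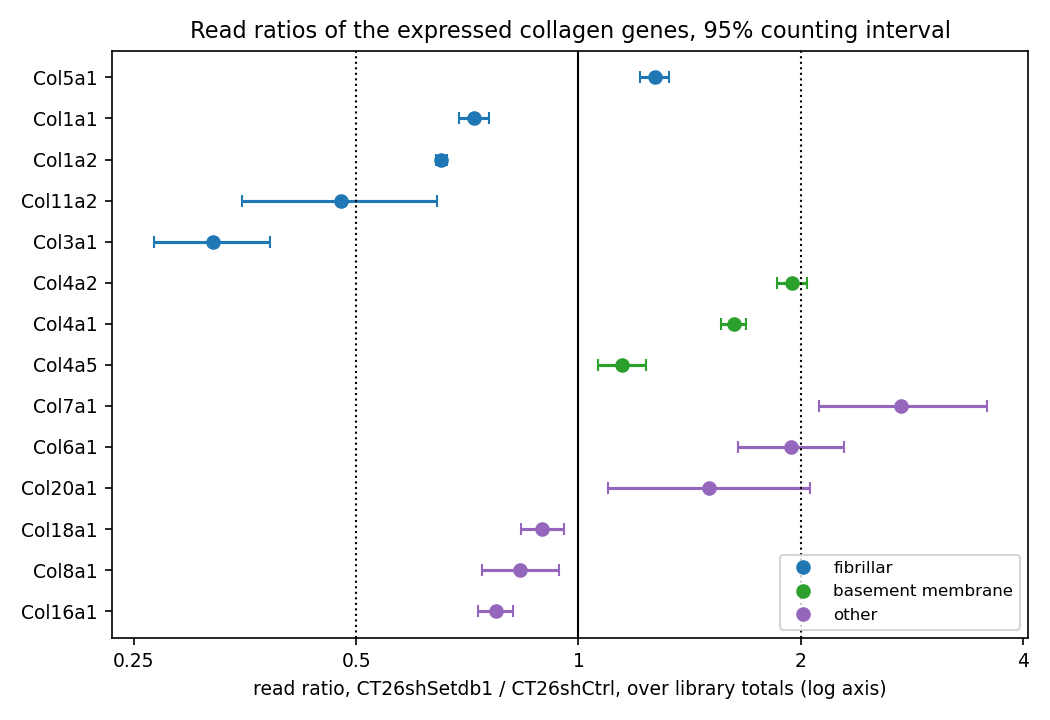
Read ratio of the knockdown over the control library (log axis) for the 14 expressed collagen genes by class, with 95% exact binomial intervals for counting error and dotted lines at 2-fold. The 3 type IV genes lie above 1, with Col4a2 at 1.95, and 4 of the 5 fibrillar genes below 1, with Col3a1 at 0.320.

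Type IV collagen came mainly from 2 chains. Col4a1 (ENSMUSG00000031502, chromosome 8, 11198423 to 11312826, minus strand, GRCm38) was at 28.7 FPKM (4012 reads) in the control and 48.1 FPKM (6729 reads) in the knockdown library. Col4a2 (ENSMUSG00000031503, 11312805 to 11449287, plus strand) was at 22.0 FPKM (2731 reads) and 44.3 FPKM (5493 reads). Their products assemble together into the type IV protomer found in nearly all basement membranes. The log2 ratios were 0.73 and 0.98, with read ratios of 1.62 (1.56 to 1.69) and 1.95 (1.86 to 2.04). The 2 intervals do not overlap. The ratio of Col4a1 to Col4a2 in FPKM was 1.30 in the control and 1.09 in the knockdown library. Col4a5, whose chain serves in the basement membranes of kidney and other epithelia, was at 10.1 and 12.0 FPKM, which is a read ratio of 1.15 (1.06 to 1.24) and 0.22 on the log2 scale. Its neighbour Col4a6, divergently transcribed from 1.31 kb away, had 1 read in the control and 0 in the knockdown library. Against a floor of 3 reads for Col4a6, Col4a5 was at least 598 times its level per length in the knockdown library. The kidney pair Col4a3 and Col4a4, 0.071 kb apart on chromosome 1, had 2 reads in all.

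Col4a1 and Col4a2 are transcribed head to head, and their annotated first exons overlap by 22 bases. That overlap is shown because both starts lie in it, and the CCAAT site because it lies 32 bases upstream of the Col4a2 start. Capitals mark a GC box (GGGCGG, the core bound by Sp1 family factors) and a CCAAT box (CCAAT), searched on both strands in GRCm38.p6 windows from RefSeq and given on the plus strand.
Col4a1 and Col4a2 overlap (chr8:11312805-11312826): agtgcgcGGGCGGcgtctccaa
Col4a2 CCAAT site (chr8:11312763-11312792): gaggagctccCCAATttgttggcgctgccc
The CCAAT site lies within the annotated first exon of Col4a1. A GC box occurred in 35.7% and a CCAAT box in 37.4% of all 32851 promoter windows of the same 300 bases.

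Type I collagen was the most abundant collagen in both libraries, and both of its chains were lower in the knockdown library. Col1a2 (ENSMUSG00000029661, chromosome 6, 4504814 to 4541544) was at 140 FPKM (32503 reads) in the control and 94.1 FPKM (21896 reads) in the knockdown library. Its log2 ratio was -0.56 and its read ratio 0.652 (0.640 to 0.663). Col1a1 (ENSMUSG00000001506, chromosome 11, 94936224 to 94953042) was at 32.1 FPKM (3951 reads) and 24.0 FPKM (2950 reads), which is a read ratio of 0.722 (0.688 to 0.758) and -0.41 on the log2 scale. The usual type I trimer holds more alpha 1 than alpha 2 chains, whereas Col1a2 was at 4.34 times the FPKM of Col1a1 in the control and 3.92 times in the knockdown library. The gene models behind these levels are 12426 and 6563 bases long, and the part of model length in that ratio was not tested.

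Col3a1 and Col11a2, the fibrillar genes of lowest level among the 14, had the lowest read ratios. Col3a1, the chain of type III collagen in reticular fibres (ENSMUSG00000026043, chromosome 1, 45311538 to 45349706), went from 493 to 163 reads, or from 2.68 to 0.887 FPKM. Its log2 ratio was -0.96 and its read ratio 0.320 (0.266 to 0.383). Col11a2, a type XI chain best known from cartilage, went from 136 to 67 reads (1.06 and 0.524 FPKM), a read ratio of 0.477 (0.350 to 0.643). Col5a1 was the 1 fibrillar gene that was higher. Its chain, of type V collagen, sits inside type I fibres and helps to start them. It was at 20.2 FPKM (3218 reads) in the control and 26.5 FPKM (4219 reads) after knockdown, a read ratio of 1.27 (1.21 to 1.33) and 0.37 on the log2 scale. Exons of Col5a1 overlap 2 genes on the opposite strand, 2810430I11Rik and Gm13372, which had at most 27 reads each in either library.

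The sequence before the RefSeq start is shown for 3 fibrillar genes, Col5a1, which was higher, and Col1a2 and Col3a1, which were lower. Capitals mark letter matches to a GC box (GGGCGG or its complement CCGCCC) and a TATA box (TATAAA, in 13.6% of all windows). Matches were marked at any distance from the start, and no 2 of them overlap in the stretches shown. Each stretch runs 5' to 3' along the gene and leaves out bases annotated as exons.
Col5a1 (chr2:27886175-27886424, plus strand): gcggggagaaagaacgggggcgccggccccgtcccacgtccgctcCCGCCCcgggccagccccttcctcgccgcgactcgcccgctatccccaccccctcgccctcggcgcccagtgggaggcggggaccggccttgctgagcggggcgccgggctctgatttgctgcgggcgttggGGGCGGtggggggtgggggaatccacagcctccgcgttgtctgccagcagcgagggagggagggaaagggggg
Col1a2 (chr6:4505370-4505492, plus strand): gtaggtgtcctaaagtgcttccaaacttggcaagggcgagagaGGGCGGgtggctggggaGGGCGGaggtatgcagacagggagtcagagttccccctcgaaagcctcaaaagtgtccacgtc
Col3a1 (chr1:45311288-45311537, plus strand): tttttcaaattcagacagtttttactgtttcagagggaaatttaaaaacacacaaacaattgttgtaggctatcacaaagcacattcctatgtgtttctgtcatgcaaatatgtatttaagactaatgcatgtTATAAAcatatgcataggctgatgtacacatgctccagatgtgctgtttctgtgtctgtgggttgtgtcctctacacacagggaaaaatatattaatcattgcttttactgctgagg
The Col5a1 stretch is 76.4% G or C with 28 CpG dinucleotides, and the Col3a1 stretch 35.2% with 0. The Col1a2 stretch ends 125 bases before the RefSeq start and holds 2 GC boxes in 123 bases. The deposited Col1a2 gene model starts further upstream, at 4504814, so this stretch lies inside that model. The 300-base window of Col1a2 also held a CCAAT box, which is not within the stretch shown. Over 300-base windows (250 bases before to 50 after the start), which matched 35 of the 44 genes, 10 of 13 expressed and 12 of 22 silent collagen genes held a GC box. Protein-coding genes at 1 FPKM or more held one in 65.7% of windows and other protein-coding genes in 31.7%. A CCAAT box was found in 7 of the 13 and 5 of the 22, against 38.2% and 37.5% of those 2 sets of genes. The median ratio of observed to expected CpG was 0.543 for the expressed and 0.382 for the silent collagen genes, against 0.780 for protein-coding genes at 1 FPKM or more and 0.311 for other protein-coding genes. The unmatched genes were Col1a1, Col2a1, Col4a3, Col5a2, Col9a3, Col12a1, Col14a1, Col22a1 and Col26a1.

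The other classes were mixed. Col16a1, a collagen that attaches to fibrils, was at 22.8 FPKM (2883 reads) in the control and 18.2 FPKM (2303 reads) in the knockdown library, a read ratio of 0.773 (0.731 to 0.816). Col18a1, the basement membrane collagen whose end fragment is endostatin, was at 14.0 and 13.0 FPKM, a read ratio of 0.894 (0.836 to 0.955). Col8a1, of the short network collagen VIII, was at 4.06 and 3.50 FPKM, a read ratio of 0.834 (0.740 to 0.940). These 3 were the lower ones, all by less than 1.5-fold. Col6a1, a chain of the beaded filaments of collagen VI, was at 2.68 FPKM (220 reads) and 5.38 FPKM (441 reads), a read ratio of 1.94 (1.65 to 2.29). Col7a1, the anchoring fibril collagen that ties basement membrane to stroma, went from 81 to 229 reads (0.420 and 1.19 FPKM). Its read ratio of 2.73 (2.11 to 3.57) was the highest of the 14 expressed genes, while its log2 ratio of (FPKM + 1) was 0.62. Col20a1 went from 69 to 107 reads, a read ratio of 1.5 (1.10 to 2.06). It shares 79 exon bases with 9230112E08Rik on the same strand, which had 227 and 267 reads and the same protein match in the authors' table, so its value is less certain.

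For several expressed chains the genes of the usual partner chains were silent. The Col6a1 chain assembles with those of Col6a2 and Col6a3 in the common collagen VI trimer. Col6a2, 85.2 kb away on the same strand, had 7 reads in the control and 12 in the knockdown library, and Col6a3 had 1 and 0. Per length, Col6a1 was at 59.7 times the level of Col6a2 in the control and 69.9 times in the knockdown library. Col5a1 was likewise at 280 and 318 times the level of Col5a2, its partner in most type V trimers, which had 13 and 15 reads. Col5a2 lies 24.6 kb from the expressed Col3a1. Col8a2, the other collagen VIII chain, had 0 and 1 reads. For types V, VI and VIII the reads came almost wholly from the alpha 1 chain in both libraries.

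Col6a1 and Col6a2 are shown as expressed and silent neighbours of chromosome 10, upstream of their starts and outside annotated exons, 5' to 3' along the minus strand.
Col6a1 (chr10:76726169-76726294): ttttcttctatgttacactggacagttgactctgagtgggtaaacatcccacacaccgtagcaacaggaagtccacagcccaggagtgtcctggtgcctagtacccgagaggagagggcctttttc
Col6a2 (chr10:76623631-76623880): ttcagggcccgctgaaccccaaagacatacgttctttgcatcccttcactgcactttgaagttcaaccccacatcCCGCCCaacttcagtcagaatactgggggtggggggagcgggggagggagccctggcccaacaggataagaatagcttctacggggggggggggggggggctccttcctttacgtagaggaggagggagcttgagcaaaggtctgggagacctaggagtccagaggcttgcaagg
The Col6a1 stretch held no GC, CCAAT or TATA box, and the silent Col6a2 held 1 GC box. The stretches are unlike: that of Col6a1 has 126 bases and ends 124 bases before its RefSeq start. That of Col6a2 has 250 bases and ends at its start. Over the full 300-base windows, Col6a1 again held none of the 3 boxes and Col6a2 only a GC box. Such a match describes letters in the window only.

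The 30 silent genes held 156 reads in the control and 140 in the knockdown library. Col14a1, a fibril-associated collagen, had the most, 91 and 44 reads, a read ratio of 0.468 (0.319 to 0.677). Col9a3 had 3 and 19 reads, a read ratio of 6.13 with a counting interval of 1.80 to 32.3. Col17a1, of the hemidesmosomes of epithelia, had 4 and 12 reads, and Col12a1 had 11 and 2. Col5a2 had 13 and 15 and Col6a2 7 and 12 reads, as given with their partner chains. A further 13 genes had 1 to 9 reads in their higher library: Col2a1, Col4a4, Col4a6, Col5a3, Col6a3, Col6a4, Col8a2, Col11a1, Col15a1, Col22a1, Col23a1, Col24a1 and Col28a1. The remaining 11 had no read in either library: Col4a3, Col6a5, Col6a6, Col9a1, Col9a2, Col10a1, Col13a1, Col19a1, Col25a1, Col26a1 and Col27a1. A count of 0 allows up to 3 reads, which is 0.0123 to 0.0517 FPKM for these 11 genes.

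The make-up of the collagen pool differed between the 2 libraries. Summed over the 44 genes the level was 302 FPKM in the control and 294 FPKM in the knockdown library, a ratio of 0.972. The read ratio of the 44 genes together was 0.865 (0.855 to 0.876). Sums of reads give long gene models more weight than sums of FPKM, and Col1a2 held 32503 of the 54169 collagen reads of the control. Fibrillar genes gave 64.8% of the summed FPKM in the control and 49.7% in the knockdown library, and type IV genes 20.1% and 35.5%. The other classes gave 15.1% and 14.7%. Col1a2 alone went from 46.2% to 32.0% of the pool. Col4a1 moved from rank 3 to rank 2 and Col4a2 from rank 5 to rank 3, while Col1a1 moved from rank 2 to rank 5. In reads, fibrillar genes had a ratio of 0.703 (0.693 to 0.714) and type IV genes 1.66 (1.61 to 1.70).

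**Figure D3:**
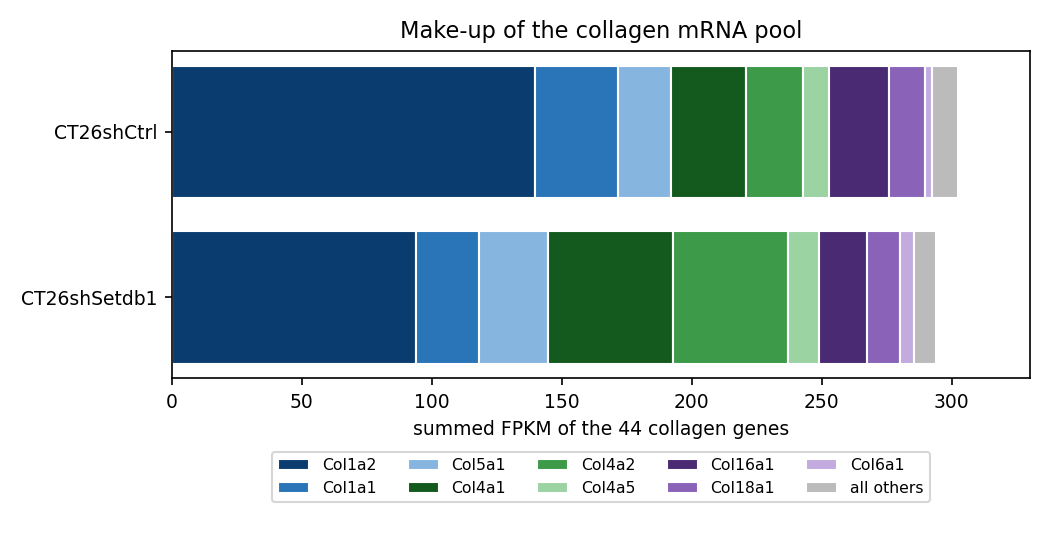
Summed FPKM of the 44 collagen genes in each library, with a segment for each gene that reached 5 FPKM and a grey segment for all others. The bars end at 302 and 294 FPKM, and the green type IV segments are longer in the CT26shSetdb1 library (35.5% against 20.1%).

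Genes that make, bind or degrade collagen were described from 6 lists, to be read against the 6.18% of protein-coding genes at 1 FPKM or more that were at least 2-fold higher and the 4.15% that were lower. Of 19 expressed genes of collagen folding and secretion, 4 were at least 2-fold higher and 0 lower, with a median log2 ratio of 0.28. The 4 were the prolyl hydroxylase chains P4ha2 (4.20 to 51.4 FPKM, log2 ratio 3.33), P4ha1 (13.3 to 64.2 FPKM, 2.18) and P4hb (361 to 1026 FPKM, 1.5) and the lysyl hydroxylase Plod2 (2.01 to 7.43 FPKM, 1.49). Serpinh1, the collagen chaperone HSP47, was at 333 and 249 FPKM (log2 ratio -0.42), and the lowest ratio was that of Mia2, a collagen export factor, at -0.64. Among 6 expressed lysyl oxidases and procollagen proteinases the median was 0.39, from Loxl4 at -1.40 (50.7 to 18.6 FPKM) to Loxl3 at 0.92. Of these, 3 were above 0 and 2 below. The summed level of this list was 477 FPKM in the control and 389 FPKM in the knockdown library, most of it Pcolce (403 and 333 FPKM, log2 ratio -0.28). Lox itself, the enzyme that cross-links fibrillar collagen, had no read in either library. Loxl4 was the 1 member at least 2-fold lower.

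For 5 expressed collagen receptors the median was 0.29, with 3 above and 2 below 0. The middle gene was Adgrg1, at 1.07 and 1.53 FPKM. Itgb1, the receptor of highest level, was at 60.3 FPKM in the control and 42.5 FPKM in the knockdown library (log2 ratio -0.495). Over all 11 listed receptors the summed level was 99.8 FPKM in the control and 77.7 FPKM in the knockdown library. Ddr2, a receptor kinase for fibrillar collagen, was at 18.0 FPKM in the control and 5.99 FPKM in the knockdown library (log2 ratio -1.44), and Ddr1 was at 16.4 and 21.0 FPKM (0.33). Mrc2, an endocytic collagen receptor, had the highest ratio at 0.65. Of 9 expressed laminins and basement membrane partners of type IV collagen 8 were above 0, with a median of 0.44. Over all protein-coding genes at 1 FPKM or more, 4665 of 9365 were above 0. Among the 8, Lama5 (0.054) and Lamc1 (0.061) lay close to 0. Their read ratio intervals, 0.984 to 1.03 and 0.979 to 1.04, held 1. Agrn was at 9.64 and 20.6 FPKM (1.02), the 1 member at least 2-fold higher, Hspg2 (perlecan) was at 21.7 and 32.3 FPKM (0.55), and Lamb1 was lowest at -0.37. Of 14 collagen-degrading proteases 3 reached 1 FPKM. Mmp14 was at 19.1 and 39.4 FPKM (1.01), Mmp3 at 0.356 and 1.04 FPKM (0.59) and Mmp11 at 24.0 and 13.2 FPKM (-0.81), a median of 0.59. Ctsk fell just short of 1 FPKM, with 1 read in the control and 28 (0.989 FPKM) in the knockdown library. Its read ratio was 27.1 (4.48 to 1107). Mmp13, also short of it, had 38 reads (0.759 FPKM) and 35 reads (0.699 FPKM). Under upper-quartile scaling Mmp3 fell short of 1 FPKM and the protease median was 0.012. The 12 expressed matrix glycoproteins and proteoglycans had a median of -0.012, with 6 above and 6 below 0. The summed level of this list was 1134 FPKM in the control and 1610 FPKM in the knockdown library. Most of it came from Spp1 (442 and 799 FPKM, 0.85) and Fn1 (381 and 534 FPKM, 0.49). Thbs2 was the 1 member at least 2-fold higher (13.0 to 36.1 FPKM, 1.41). Fbln5 (10.7 to 1.11 FPKM, -2.47), Thbs1 (12.0 to 2.80 FPKM, -1.77) and Ccn2 (21.2 to 9.22 FPKM, -1.12) were at least 2-fold lower.

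**Figure D4:**
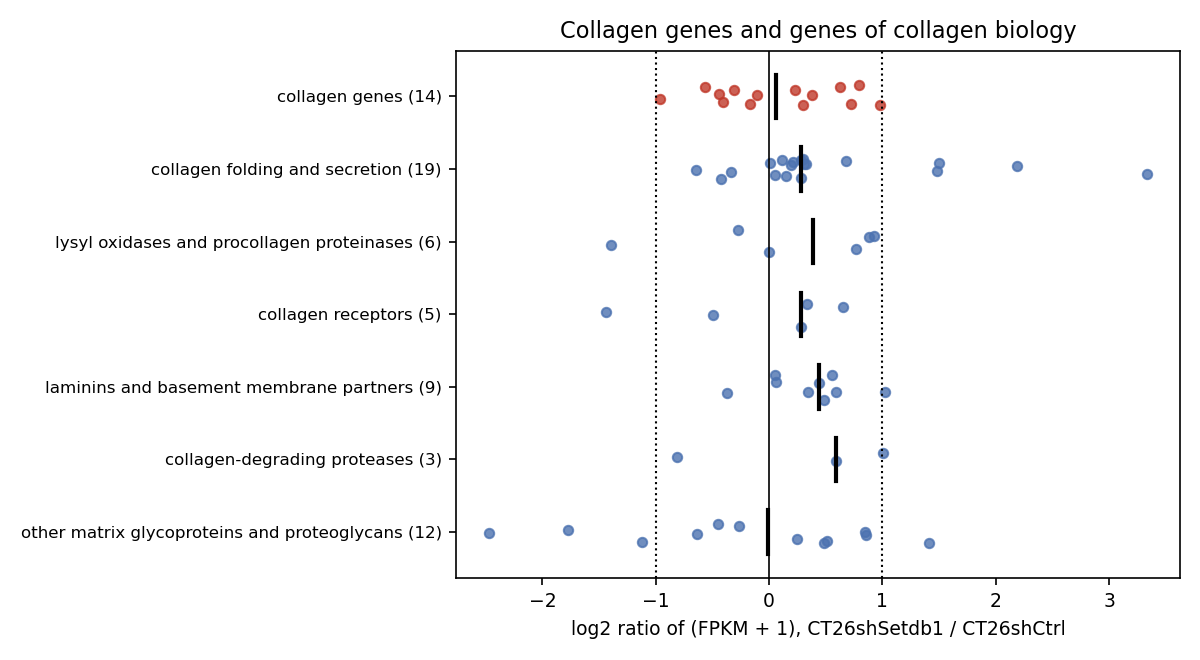
Log2 ratios of (FPKM + 1), knockdown over control, for the 14 expressed collagen genes and the expressed members of 6 lists, with a point per gene, a black bar at the median and dotted lines at 2-fold. All 14 collagen points lie between the dotted lines, and 4 genes of collagen folding and secretion lie above the upper one.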

How the data were processed

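Total RNA of 2 CT26 cultures was sequenced from NEBNext Ultra libraries, per the labels. The authors deposited FPKM values for 54680 genes, with gene model lengths and positions, per the file headers. The submitters' processing notes name CASAVA, HISAT2, featureCounts 1.5.0-p3 and GRCm38. The annotation release and the strand setting are not given in the sources used here. All 44 members had the position of GENCODE M21.

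Reads were recovered as FPKM times length over a common step (depth 18731117). All values above 0 were whole to within 0.01 read. No p-values were computed, since neither group had a second library. Log2 ratios used a pseudocount of 1, and a gene counted as expressed at 1 FPKM or more in either library. Genes named by rule were all expressed members, silent members with 10 reads or more, Setdb1, and the highest, lowest and 2-fold members of the companion lists. Other silent members and cell type markers were also named. From the lists, Serpinh1, Lox, Pcolce, Ddr1, Itgb1, Adgrg1, Hspg2, Lama5, Lamc1, Mmp3, Mmp13, Ctsk, Fn1 and Spp1 were named outside that rule. Members, lists and alternatives were chosen with earlier results of these data known. Ccn1 and Ccn2 were matched by RefSeq synonyms. Promoter windows came from RefSeq on GRCm38.p6. Calculations used scipy 1.17.1, pandas 2.3.3, numpy 2.4.6 and matplotlib 3.10.9 in Python 3.11.15, and were tested on simulated data.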

Additional observations from a re-analysis of the deposited data

How the results depend on the processing

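No paired analysis was possible because there was 1 library per group. No library could be left out either. Of 62 alternative values for the counts and medians, 46 stayed within 1.5 times the count or moved a median by less than the half-width of its middle gene's log2 counting interval, 14 moved further and 2 reversed. That margin is wide where the middle gene has few reads, as for the proteases (Mmp3) and the fibrillar genes (Col11a2). Expressed genes numbered 9 at 5 FPKM and 44 without a filter, as those limits make them. Genes at least 2-fold higher numbered 2 with a pseudocount of 0.1, and those lower 1 with it and 1 under upper-quartile scaling. At 1.5-fold they were 4 and 1. The median over expressed collagen genes lay near 0, at 0.22 with the 5 FPKM filter and reversed to -0.022 under upper-quartile scaling. That of the other classes reversed to -0.11 with the 5 FPKM filter, which leaves 3 fewer genes. The type IV median was 0.11 without a filter, 0.64 under upper-quartile scaling and 0.64 as a mean. Upper-quartile scaling put the transcriptome-wide median, taken over genes that both libraries held at 1 FPKM, at -0.076. It gave 0.19 for folding and secretion, 0.35 for laminins and partners and -0.099 for matrix glycoproteins. The same scaling took Mmp3 below 1 FPKM and the protease median to 0.012. The fibrillar median stayed below 0 under the 7 alternatives run, at -0.011 without a filter, where most members are silent. Of 42 alternative values for the 14 single genes 10 moved and 0 reversed. Depth limits the silent genes, of which 13 had 1 to 9 reads in their higher library and 11 had none.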

Other observations

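The authors' table carries Pfam entries for 32 of the 44 collagen genes, and 31 of these name the collagen triple helix repeat. The same repeat is named for 24 other protein-coding genes, of which 2 reached 1 FPKM in at least 1 library, both named after their values were seen. C1qtnf1, a secreted protein of the C1q and TNF related family, went from 88 reads (1.5 FPKM) in the control to 285 reads (4.86 FPKM) in the knockdown library, a read ratio of 3.13 (2.46 to 4.03). Fcna, the lectin ficolin A, had 211 and 184 reads (8.20 and 7.15 FPKM), a read ratio of 0.843 (0.688 to 1.03).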
